A study of Mus musculus with 26 samples.

Results

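The regions described here were the CpG-dense windows that are methylated in sperm. They are autosomal windows of 1000 bp, starting at base 1 of each 1000, that held 10 or more distinct cytosine positions with at least 10 reads in every one of the 20 offspring libraries, and whose methylation, taken as methylated reads over reads and averaged over those 20 libraries, was 80% or more. Of 106004 autosomal windows with a covered position, 10751 met the density condition, and 323 of these, or 3.00%, met the level condition and are called members below. Members were thus chosen by their measured level in the 20 offspring, and those levels are given as a description without a test.

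Sperm DNA of 26 mice was measured by reduced-representation bisulfite sequencing (RRBS), in which DNA cut at CCGG sites is treated with bisulfite so that an unmethylated cytosine is read as thymine. The study asked whether transplantation of spermatogonial stem cells (SSCT) changes sperm methylation in the transplanted male and his descendants. SSCT F0 (n = 3) were sterile W/W-v males of the WBB6F1/J background that carried cultured spermatogonial stem cells of neonatal DBA/2J donors, and control F0 (n = 3) were DBA/2J males; both were 16 to 18 months old at collection. The offspring were males of 3 months labelled DBA/2J, in 4 groups (n = 5 each): control F1, SSCT F1, and the F2 lines SSCT F2/P, which descends through SSCT F1 males, and SSCT F2/M, which descends through SSCT F1 females. All sperm came from the cauda epididymis. Brothers were avoided within a group, and the mice of a group were separate animals. Control F1 and SSCT F1 each had fewer sires than mice, so some mice of each group shared a father. Which mice did so is not given, nor are the sires of single mice in the F2 lines. The tests between mice below treat the mice of a group as independent, with no allowance for shared fathers. The host testis of SSCT F0 was of another strain than its germ cells, and the label DBA/2J was given to their sperm as donor-derived.

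Libraries stood apart in 3 ways that bear on the members. The 3 SSCT F0 libraries were the ones made from less than 100 ng of DNA, so input and SSCT F0 cannot be told apart. SSCT F0 replicates 2 and 3 kept 1123580 and 305964 positions, against 1977100 to 2232483 in the other 24 libraries, while reads per library ranged from 45616751 to 87707577. The names of the 4 offspring groups rest on the sample titles, and a clustering picture in the publication gives the same 4 sets of 5 libraries other names. Every offspring comparison below therefore names libraries by their titles, and values under the other names are given with the limits at the end. Promoters that are low in sperm were low here: the 12 of maternally methylated imprinted genes and 10 of germline genes had a median over the 20 offspring of at most 4.13%. Paternal imprints are methylated in sperm, but the 5000 bases before the starts of Rasgrf1, Dlk1, Meg3 and Zdbf2 held 2.99%, 15.6%, 18.1% and 0%. Whether the imprinted regions lie in these bases was not looked up, so no marker that is high in sperm was shown to be high. In SSCT F0 some of these promoters were higher, with Nap1l5 at 18.7% and Sycp1 at 18.6% in replicate 2 and Peg3 at 24.0% in replicate 3. Others were not. Nap1l5 and Sycp1 were at 0% in replicate 3, and Snrpn, Mest, Nnat, Mael and Tex101 at 0% in replicate 2. The bases before Meg3 were at 2.31% and 0.0190% in replicates 2 and 3. The part of these levels in the SSCT F0 results was not tested.

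In mammalian DNA, methylation is set mainly on the cytosine of CpG pairs, and the methyl group is copied to the new strand at each division. Most CpG-rich DNA lies in CpG islands at gene starts and stays free of methylation, in sperm as in somatic cells, while CpGs inside genes and between genes are mostly methylated. Male germ cells acquire their methylation before birth, in prospermatogonia, and spermatogonial stem cells carry it forward to sperm. A CpG-dense stretch that is methylated in sperm is therefore the less common combination.

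Of the members, 7 held the start of a gene. For 3 of them, part of the covered positions fell inside the 300 bases around the start that the RefSeq promoter table holds (250 before and 50 after the start, GRCm38.p6). Inside lay 3 of the 12 positions of the Arhgef2 window, 7 of 12 at Gm33240 and 7 of 10 at Gm10863. The sequences of these 3 genes are shown because they are the gene starts at which high methylation could be read base by base. Capitals mark the CpGs with a covered position, and the sequences run 5′ to 3′ on the strand of the gene.
Arhgef2, chr3:88629223-88629522, plus strand: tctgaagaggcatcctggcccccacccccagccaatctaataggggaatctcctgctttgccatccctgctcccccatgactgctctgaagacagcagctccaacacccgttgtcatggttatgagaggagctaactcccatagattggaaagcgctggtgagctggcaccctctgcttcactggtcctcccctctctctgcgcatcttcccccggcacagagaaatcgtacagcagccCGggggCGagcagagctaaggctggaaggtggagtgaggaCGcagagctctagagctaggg
Gm33240, chr13:57444165-57444464, plus strand: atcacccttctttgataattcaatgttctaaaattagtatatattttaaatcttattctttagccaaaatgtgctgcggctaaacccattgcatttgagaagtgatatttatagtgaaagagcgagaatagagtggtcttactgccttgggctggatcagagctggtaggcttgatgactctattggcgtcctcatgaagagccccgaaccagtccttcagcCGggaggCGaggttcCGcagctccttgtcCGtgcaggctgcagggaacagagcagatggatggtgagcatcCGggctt
Gm10863, chr15:79165816-79166115, plus strand: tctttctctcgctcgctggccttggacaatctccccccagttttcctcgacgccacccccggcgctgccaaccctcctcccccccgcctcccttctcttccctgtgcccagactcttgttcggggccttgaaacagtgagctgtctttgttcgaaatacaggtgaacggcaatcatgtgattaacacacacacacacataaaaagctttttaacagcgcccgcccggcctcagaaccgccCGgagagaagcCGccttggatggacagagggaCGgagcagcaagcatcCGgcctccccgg

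Arhgef2 encodes a guanine nucleotide exchange factor that binds microtubules. Its window had a level of 98.4% ± 1.27 (SD, n = 20), and 3 of the 8 CpGs in the printed sequence were covered, at 97.5% to 98.3%. They lay 11 and 5 bp before and 29 bp after the start, so a methylated level was read on both sides of it. Gm33240, a predicted gene inside Spock1, had a window level of 97.5% ± 1.77, and the 7 covered positions of the printed sequence, at 5 of its 9 CpGs, had means of 94.9% to 99.9%. The window of Gm10863, a predicted gene on chromosome 15, was at 86.5% ± 4.16, and 7 positions at 4 of the 19 CpGs in the printed sequence were covered. Of these, 6 were above 95%, and the plus-strand position 38 bp after the start was at 12.5%, with a range over the 20 mice of 0% to 39.6%. The minus-strand cytosine of the same CpG, the last capital pair of the sequence, was at 95.9%. This CpG lies in a CCGG site, at which RRBS cuts the DNA. The part of library preparation in the 12.5%, and so in the window level, was not tested. The other 4 gene starts were those of Gm52677, Sult2b1, Tbcel and Cela1, whose covered positions lay outside the 300 bases. The Sult2b1 sulfotransferase window was at 97.8% ± 2.28, that of Tbcel, a tubulin cofactor-like gene, at 97.9% ± 1.40, and that of Cela1, a pancreatic-type elastase, at 86.1% ± 7.68.

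**Figure D1:**
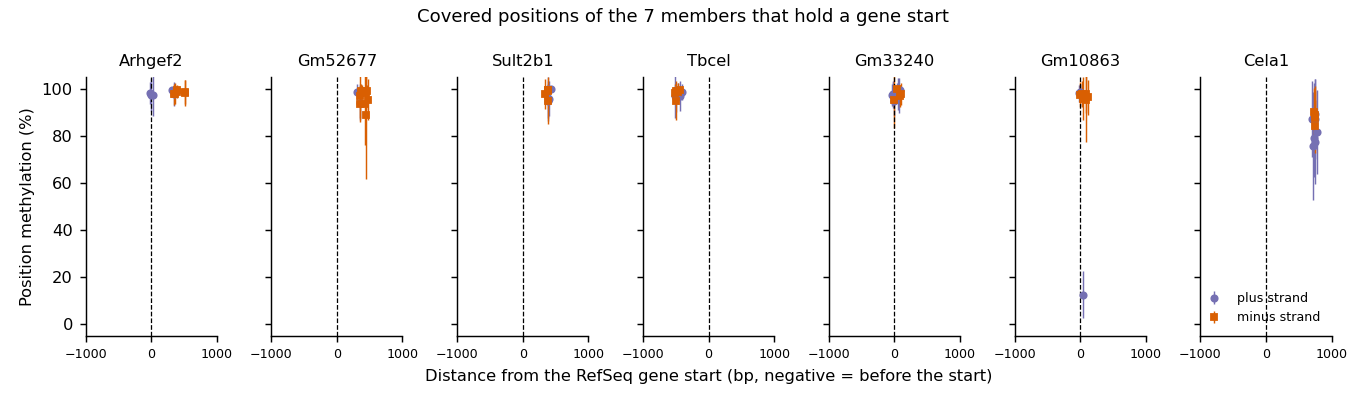
Methylation of each covered position (vertical axis, %) against its distance from the RefSeq gene start (horizontal axis, bp) in the 7 members that hold a gene start. Points are means and bars SDs over the 20 offspring mice, circles the plus and squares the minus strand. The position 38 bp after the Gm10863 start is at 12.5%, while its neighbours are above 95%.

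Members seldom coincided with gene starts. Gene starts on chromosome 18 were not analysed here, and of the 313 members elsewhere 2.24% held a start, against 4936 of 9893, or 49.9%, of the CpG-dense windows under 20% elsewhere. The median distance to the nearest start was 23.6 kb for members and 0.501 kb for windows under 20%. The 7 promoters in members held a median of 8 CpGs in 300 bases and 49.0% GC, while the 6311 promoters of windows under 20% held 26 CpGs and 65.7% GC. The density condition counts covered positions, not CpGs in the DNA, and these values show that the starts in members were poorer in CpGs.

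By level, the dense windows fell into a large low class and a small high class. Under 20% lay 10211 windows, from 20% to 80% lay 217, and at 80% or more lay the 323 members. Within the members, 80 windows were at 80% to 90%, 54 at 90% to 95%, 188 at 95% to 99% and 1 at 99% or more. The median member was at 97.0%, with quartiles of 90.3% and 98.2%. Just inside the threshold were a window in Igf2os at 80.01%, the Dzip1l window at 80.2% and a window on chromosome 15 at 80.3%. Just below it were windows on chromosome 13 at 79.99% and on chromosome 6 at 79.9%, and the Man2a2 window at 79.9%.

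**Figure D2:**
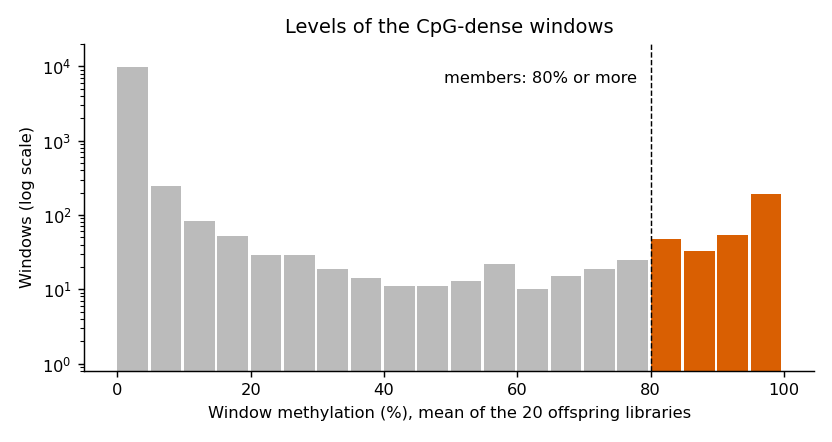
Number of CpG-dense windows (vertical axis, log scale) by window methylation, the mean of the 20 offspring libraries (horizontal axis, %). Grey bars are windows under 80% and orange bars the 323 members. Most windows sit under 5%, and the highest orange bar is the one that starts at 95%.

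The members rested on 3888 cytosine positions at 2987 CpGs. A member held a median of 11 positions (10 to 41) that spanned 181 bp (37 to 979), with a median of 44 reads per position in a library. Both strands were covered at 901 CpGs, and their levels differed by a median of 1.47 points. At 42 of these CpGs the strands differed by over 10 points.

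The windows with the most positions were named by a rule on the number of positions. The window chr9:123924001-123925000, outside any gene span and 0.647 kb from the nearest start, held 41 positions at a mean of 89.9%. It was followed by chr12:5056001-5057000 with 33 positions at 92.4%, by the window of Srsf4, a splicing factor, with 32 positions at 97.8%, and by that of Pard6b, a cell polarity protein, with 27 positions at 97.0%. The next were chr12:5051001-5052000 with 26 positions at 90.3% and chr3:23687001-23688000 with 24 positions at 84.2%. Of these 6 dense stretches, only Srsf4 and Pard6b lay in genes.

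On chromosome 12, 6 members lay within 10 kb. The windows chr12:5055001-5056000, chr12:5056001-5057000 and chr12:5057001-5058000 adjoined, with 18, 33 and 11 positions at 95.5%, 92.4% and 93.8%, and chr12:5050001-5051000 and chr12:5051001-5052000 adjoined at 82.5% and 90.3%. The sixth was chr12:5059001-5060000, with 12 positions at 92.8%. Other adjoining members lay in Shank2, a scaffold protein of the postsynaptic density, at 90.8% and 97.8%. More widely, 81 of 96 windows next to a member that had a covered position were themselves at 80% or more (84.4%, median 97.7%), while 7993 of 8698 windows next to a window under 20% were under 20%. The share at 80% or more among all windows is not given here, so no clustering around members is read from these counts.

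Gene spans held 239 members (74.0%) and 84 lay outside. Members in genes were at a median of 97.7%, those outside at 90.5%, and the share at 95% or more was 70.7% inside against 23.8% outside. The spread between mice followed the same order, with a median SD of 1.78 points inside and 3.14 outside. Of the dense windows under 20%, 93.1% lay in gene spans. In all, 248 genes held a member, and 228 members lay in protein-coding genes.

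The highest members lay in genes. The Shank3 window, in a second scaffold gene of the postsynaptic density, reached 99.04% ± 0.945 (SD, n = 20). It was followed by windows in Myom2, a protein of the muscle M-band, Traf3ip1, an intraflagellar transport protein, Nfkbid, a nuclear inhibitor of NF-κB, Zc3h13, a subunit of the RNA m6A methyltransferase complex, and Dhx35, an RNA helicase. Each of 10 genes held a pair of members, namely Ttn, Shank2, Acacb, App, Celsr1, Zc3h13, Cxxc5, Map3k1, Bcl11b and Spock1. The share of dense windows that were members ranged from 1.97% on chromosome 19 to 4.02% on chromosome 4.

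Gene families were counted by how many of their dense windows, in a gene or near it, were members, beside 3.00% over all dense windows. Voltage-gated calcium channel genes had 3 members among 32 dense windows, namely windows in the pore subunit gene Cacna1c at 97.0% and the beta subunit gene Cacnb4 at 80.3%, and a window near the pore subunit gene Cacna1d that lies in Chdh and Gm52108, at 97.6%. Ankyrin, spectrin and other scaffold genes had 4 among 43, in Ank1 at 98.1%, Shank3 and the Shank2 pair. Notch receptors and ligands had 1 among 18, in Notch2 at 98.6%. Zfp genes, a list added after the values were seen, had 7 among 180. Each of these counts is small and has no test, and the families were listed with earlier results known.

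Other families held no member. None of 62 dense windows at Hox genes was a member, nor any of 20 at maternally methylated imprinted genes, 8 at germline genes, 9 at pluripotency genes, 8 at collagen genes, 13 at laminin, fibrillin and agrin genes, 8 at clustered protocadherins, 11 at DNA methylation enzymes or 10 at histone deacetylases. Of the 6 dense windows at paternally methylated imprinted loci, 1 was a member, the Igf2os window beside the growth factor gene Igf2. Its levels by mouse were 77.5%, 82.4%, 74.2%, 86.0% and 75.02% in control F1 and 80.05%, 72.2%, 81.0%, 75.4% and 80.3% in SSCT F1. SSCT F2/P mice had 75.3%, 83.3%, 86.2%, 82.4% and 82.7%, and SSCT F2/M mice 89.3%, 79.8%, 77.5%, 80.4% and 79.3%. The 4 groups overlapped throughout.

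Single positions departed from their windows. Over all member positions the median was 97.4%, 68.8% of positions were at 95% or more, and 253 were under 80%, 50 under 50% and 30 under 20%. All positions were at 80% or more in 224 members, and 286 members had none under 50%. In 12 members, 14 positions were under 20% in each of the 20 offspring, although the other positions of those windows had medians of 93.4% to 99.2%.

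These 14 positions were of 3 kinds. In the windows of Dpt, a matrix protein of skin, and App, the amyloid precursor protein, both strands of 1 CpG were low, at 0% and 0.236% in Dpt and at 0% and 0.292% in App. At 5 positions only 1 strand was low while the other was at 97.6% to 99.5%. Cacnb4 was 1 of these, with 4.79% on 1 strand and 98.4% on the other, as were Adtrp with 3.36% and 99.5% and Racgap1 with 2.83% and 98.4%. At the remaining 5 positions, in Dyrk3, Padi3, Klf3, Map3k1 and Bach1, the other strand was not covered, and the mean was 0%, or 0.0725% in Map3k1. Bisulfite reading scores any thymine as unmethylated. Where the other strand was low or not covered, an unmethylated cytosine and a base of DBA/2J that differs from the reference therefore cannot be told apart here. At the 5 positions with only 1 low strand, the other strand was read as a methylated CpG, and the cause of the low level was not tested.

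The 6 windows with the largest spread of positions included those of Cacnb4 and Dpt. Cacnb4 had positions from 4.79% to 99.6%, but its window level was 80.3% with an SD of 1.51 points over the 20 mice. The Dpt window had the smallest SD of all members, 0.682 points. The others were those of Racgap1, App and Map7 and a window on chromosome 4.

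Between mice, the members varied by a median SD of 2.02 points (0.682 to 10.4). Dense windows under 20% had a median SD of 1.17 points and those from 20% to 80% one of 6.89. The SD that binomial counting of the reads alone would give was 0.767 points at the median, and the observed SD was a median of 2.64 times that of its own window, without allowance for reads copied in PCR. In 161 members the SD was under 2 points, and in 26 it was over 5. A mouse fell under 80% in 70 members and under 50% in 0, with 60% the lowest level of any member in any mouse.

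**Figure D3:**
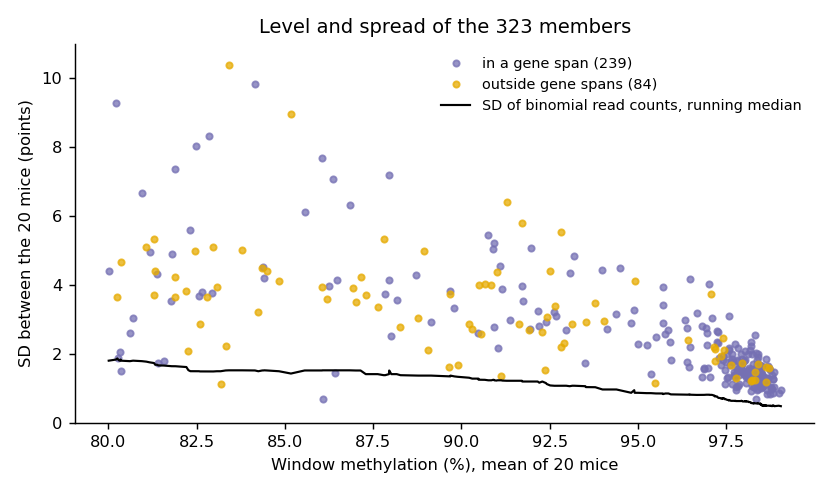
SD between the 20 offspring mice (vertical axis, percentage points) against window methylation (horizontal axis, %) for the 323 members, purple in gene spans and yellow outside. The line is the running median of the SD that binomial counting gives. Most points lie above the line, and the widest SD is 10.4 points.

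The window that varied most was chr3:9387001-9388000, in no gene, at 83.4% ± 10.4 (SD, n = 20). Its levels were 79.5%, 68.4%, 79.2%, 96.0% and 61.4% in control F1 and 88.9%, 92.9%, 88.0%, 76.5% and 90.05% in SSCT F1. SSCT F2/P mice had 90.5%, 87.3%, 60.4%, 88.2% and 88.6%, and SSCT F2/M mice 94.7%, 92.0%, 88.4%, 79.02% and 78.3%. Low mice appeared in control F1 and SSCT F2/P, and control F1 also held the highest mouse.

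The next were the window of Kcnk10, a potassium channel gene, at 84.2% ± 9.83 and that of Dzip1l, a protein of the ciliary transition zone, at 80.2% ± 9.29. They were followed by chr1:90335001-90336000 at 85.2% ± 8.97, Zc3h13 at 82.9% ± 8.33 and Btc, the ligand betacellulin, at 82.5% ± 8.03. The Kcnk10 window ranged from 64.5% in a mouse of SSCT F1 to 98.9% in mice of both SSCT F2 lines, and the Btc window from 62.3% to 98.7%, both in SSCT F1. These 6 windows each had 10 or 12 positions.

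To describe whether mice were high or low throughout a window, the plus-strand and minus-strand positions were read separately in the 297 members with 3 or more positions on each strand. The correlation of the strands over the 20 mice had a median of 0.0106. It was −0.0213 in the 151 members with an SD under 2 points, 0.0278 in the 121 with an SD of 2 to 5, and 0.0990 in the 25 with an SD over 5. The strands come from the same libraries, and these values are a description over mice of 4 groups.

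Averaged over the members, the offspring groups lay within 1 point of each other. The mean was 93.5% ± 0.27 (SD, n = 5) in control F1, 93.6% ± 0.35 in SSCT F1, 93.5% ± 0.31 in SSCT F2/P and 93.8% ± 0.26 in SSCT F2/M, and single mice ranged from 93.0% to 94.0%. Control F0, which took no part in choosing the members, was at 94.0%, 93.0% and 93.8%, or 93.6% ± 0.53 (n = 3). SSCT F0 replicate 1 was at 93.4% over all 323 members, with 92.3% of their positions. Replicate 2 was at 89.3% over the 255 members it reached, with 38.9% of the positions, and replicate 3 at 53.4% over 20 members, with 1.698% of the positions, where the offspring were at 95.9%.

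**Figure D4:**
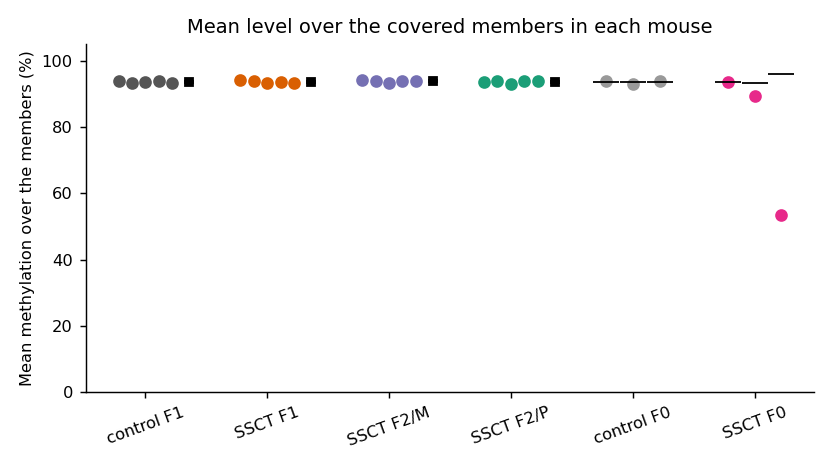
Mean methylation over the covered members (vertical axis, %) in each mouse, by group. Circles are mice, squares with bars the mean and SD of the 4 offspring groups, and horizontal lines the offspring mean at the members and positions that F0 mouse covers. The mice of the 4 offspring groups and control F0 sit between 93.0% and 94.0%, and SSCT F0 replicate 3 sits at 53.4%.

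The F0 libraries also differed in how often a position was read as wholly methylated or wholly unmethylated. Of the covered member positions, 89.2% were at 0% or 100% in SSCT F0 replicate 2 and 86.4% in replicate 3. In SSCT F0 replicate 1 the share was 74.0%, and in the offspring and control F0 it was 60.1% to 68.8%. The part of low input in the levels below was not tested.

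Each F0 mouse was set against the range of the 20 offspring at the same positions of each member, where it covered 3 or more. SSCT F0 replicate 1 was below every offspring mouse in 44 of 320 members and above every one in 44. Over all autosomal windows at 80% or more with 3 or more covered positions, 12% were below and 3.21% above. It was below by over 10 points in 16 members (6.97% of those windows) and by over 25 points in 4 (2.01%), and above by over 10 points in 18 (1.93%). Members thus lay outside the offspring range in both directions in this mouse.

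SSCT F0 replicate 2 was below every offspring mouse in 50 of 216 members (21.8% of all such windows) and above in 32 (5.3%). It was below by over 10 points in 35 members (19.7%) and by over 25 points in 17 (12.7%), and above by over 10 points in 17 (3.33%). SSCT F0 replicate 3 was below in 4 of 11 members (48.7%), by over 10 points in 4 (48.0%) and by over 25 points in 3 (45.0%), and above in 0 (5.2%), or by over 10 points in 0 (2.97%). Over all members reached, the median difference from the offspring mean at the same positions was 0.604 points in replicate 1 (323 members), 1.67 in replicate 2 (255) and −11.5 in replicate 3 (20).

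In control F0 such falls were smaller. The 3 mice were below every offspring mouse in 11, 23 and 11 members, where 4.64%, 5.63% and 4.11% of all windows at 80% or more were, and above in 13, 5 and 13, where 0.879%, 0.533% and 0.673% were. By over 10 points they were above in 1, 0 and 0 (0.392%, 0.209% and 0.193%). They were below every offspring mouse by over 10 points in 1, 8 and 2 members, with shares over all windows at 80% or more of 1.58%, 2.53% and 1.22%, and by over 25 points in 0, 0 and 0, with shares of 0.16%, 0.431% and 0.158%. Set against the other 19 over all positions of a member, each of the 20 offspring was below by over 10 points in 0 to 6 members and by over 25 points in 0. The F0 mice were read only at the positions they covered, down to 3, so these counts are not made alike. In each SSCT F0 mouse the share of members below by over 10 or over 25 points was lower than that of all windows at 80% or more. The share above every offspring mouse was higher in replicates 1 and 2, at 13.75% and 14.8% of members against 3.21% and 5.3% of those windows. These differences have no test here.

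The 4 members in which SSCT F0 replicate 1 fell below every offspring mouse by over 25 points were singled out after their values were seen. The window chr4:124241001-124242000, 30.9 kb from the nearest gene start and in no gene, had 10 positions and was at 7.58% in SSCT F0 replicate 1 (633 reads) and 0% in replicate 2 (754 reads). Control F0 was at 93.6%, 80.2% and 83.0%, and the 20 offspring had a lowest level of 80.4%, a median of 88.7% and a highest of 93.8%. Both SSCT F0 libraries that covered it were therefore far below all 23 other mice.

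The Dlec1 window had the same pattern. Dlec1 is a tumour suppressor candidate that is also expressed in the testis. Its level was 16.1% in SSCT F0 replicate 1 and 9.00% in replicate 2, against 93.2%, 92.4% and 91.9% in control F0 and 79.4%, 92.5% and 97.3% as the lowest, median and highest offspring. The Abcc12 window, in a gene of the ABC transporter family, was at 25.4% in replicate 1 and at 0% over 6 positions in replicate 2. Control F0 was at 89.9%, 75.3% and 87.3% there, and the offspring ran from 69.7% over a median of 89.2% to 98.5%.

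The fourth was chr1:177692001-177693000, in no gene, at 62.3% in replicate 1 and 46.8% in replicate 2, over 6 and 8 positions. Control F0 was at 90.1%, 91.3% and 83.9%, and the offspring at 79.6%, 92.7% and 98.9% as the lowest, median and highest over the whole window. SSCT F0 replicate 3 did not cover any of the 4 windows at 10 reads. In each of the 4, the SSCT F0 replicates that were read lay below the other mice. For replicate 1 against the offspring this was fixed by the choice of the windows. Where all 6 F0 mice were read, SSCT F0 and control F0 did not overlap in 0 of 8 members, against 10.8% of 19604 windows.

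**Figure D5:**
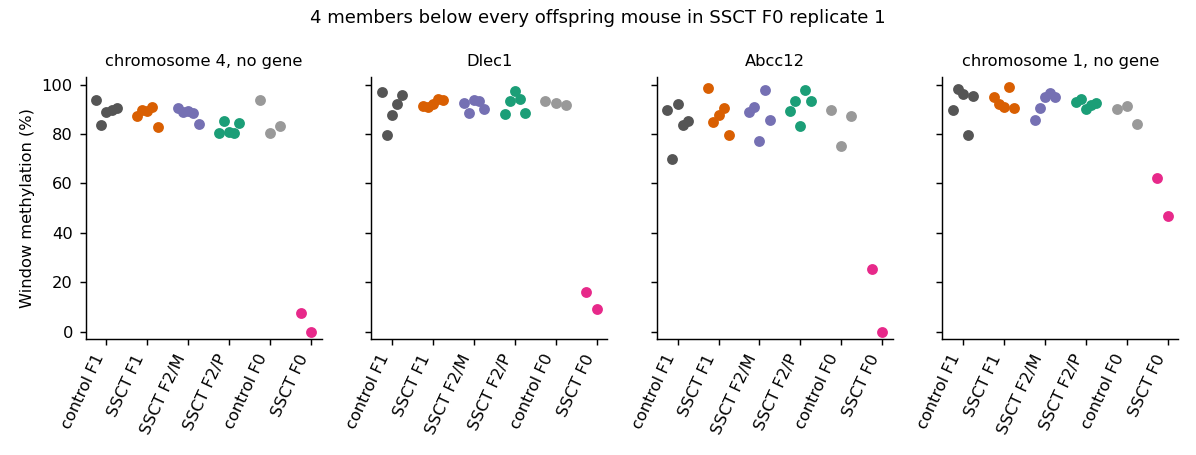
Window methylation (vertical axis, %) of each mouse in 4 members, by group. SSCT F0 has the 2 replicates that covered the window, and the other mice lie at 69.7% or more in all 4 panels. The chromosome 4 window is at 7.58% and 0% in SSCT F0.

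Beyond these 4, SSCT F0 replicate 1 differed by −20.8 to −10.2 points from the offspring mean in the 12 others, in chr6:26151001-26152000 and in the windows of Il17d, Slc45a4, Abat, Adamtsl2, Trio, Irf8, Tshz3, Sdk1, Flt1 and Ephb3 and a window on chromosome 12. The chromosome 6 window was at 61.4% in replicate 1, where the lowest offspring mouse was at 75.1%, but at 100% over 4 positions in replicate 2. The window of Adamtsl2, a secreted ADAMTS-like protein, was at 83.1% in replicate 1 and 0% over 6 positions in replicate 2. The 2 replicates thus did not always move alike.

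The window with the most positions showed the falls of the sparser libraries. At chr9:123924001-123925000, SSCT F0 replicate 1 was at 85.6%, replicate 2 at 34.9% over 41 positions (2400 reads) and replicate 3 at 0.0658% over 8 positions (3041 reads). Control F0 was at 91.2%, 90.7% and 90.5%, and the offspring ran from 87.5% to 93.4%. The lowest level was that of the library that kept the fewest positions.

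At 2 of the 14 low positions the SSCT F0 sperm was higher than all control F0 and offspring mice in both replicates that were read. In Bach1, a repressor that senses heme, the plus-strand position at base 87730793 of chromosome 16 was at 0% in all 20 offspring and in control F0 (13, 90 and 34 reads). It was at 95.5% in SSCT F0 replicate 1 (22 reads) and at 64.8% in replicate 2 (159 reads). In Map3k1, a kinase of the stress-activated pathways, base 111769449 of chromosome 13 was at 0% in control F0 (19, 114 and 65 reads), at 13.8% in SSCT F0 replicate 1 (29 reads) and at 47.5% in replicate 2 (59 reads). At the low Cacnb4 position replicate 2 was not covered, and SSCT F0 replicate 1 was at 42.9% (21 reads), against at most 18.9% in the offspring. At the low Adtrp position it was at 22.8% (57 reads), against at most 19.4% in the offspring. At Dyrk3, the plus strand of Dpt and the plus strand of App, both SSCT F0 replicates were at 0%, as were the controls. Control F0 was raised at some low positions too. On the minus strand of App, control F0 replicate 1 was at 20.5% (44 reads), against at most 3.03% in the offspring. At base 94770958 of chromosome 1, control F0 replicate 2 was at 22.2% (45 reads), against at most 11.6%. These positions were chosen after their values were seen. Whether DBA/2J differs from the reference at them, and whether the SSCT F0 sperm held DNA of the host strain, was not tested, and the SSCT F0 levels are given as those of the libraries so labelled.

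SSCT F0 was then compared with control F0 by a chi-square test of a logistic model on the methylated and unmethylated reads of each window, which pools the reads of a group. A window was called where q, the p-value adjusted by Benjamini-Hochberg over all windows, was under 0.01 and the difference was above 25 points. Only 8 members could be tested, because a position had to be read in all 6 F0 mice, and 4 were called, all lower in SSCT F0, where 10.0% of the 19604 windows were called. They were the windows of Lrrfip1, lower by 80.3 points, of Mir141, by 77.2, of chr11:31774001-31775000, by 60.6, and of Bmp7, by 53.0, and each rested on 1 to 3 positions.

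In each of the 4, a single library carried the difference. At Bmp7, which encodes a bone morphogenetic protein, SSCT F0 was at 100%, 100% and 0% and control F0 at 98.4%, 94.6% and 99.6%. At Lrrfip1 the levels were 100%, 100% and 0% against 100% in all 3 control F0 mice. In all 4 windows SSCT F0 replicates 1 and 2 were at 98.5% to 100% and replicate 3 was at 0% or 0.321%. By the chi-square test, 7 of the 8 members had q under 0.01 at any difference and 5 also a difference above 10 points, where 67.7% and 20.3% of all windows did. Of the 1807 windows with 10 or more positions read in all 6 mice 0.332% were called, and no member was among them. The F test, which scales the model's variance to the spread between mice, and limma called 0 of the 8 (0% and 0.0051% of all windows), with 1 and 0 members at an unadjusted p under 0.05, where 20.9% and 8.53% of all windows had one. Exact permutation p-values of the 4 called members were 0.9 to 1, where 3 against 3 mice cannot go below 0.1.

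Without SSCT F0 replicate 3, 256 members could be tested and 12 were called, all lower, where 10.1% of 94036 windows were called. The difference was −83.6 points at chr4:124241001-124242000, −78.8 at Dlec1, −59.1 at Abcc12 and −58.8 at chr1:177692001-177693000. At Adamtsl2 it was −70.1, which replicate 2 alone carried, with 100% in replicate 1 and 0% in replicate 2. Btc, at 69.8% and 59.9% against 94.3%, 93.1% and 94.9%, differed by −29.4 points. Igf2os differed by −30.9 over 4 positions, mostly through replicate 2. It was at 69.2% in replicate 1 and 21.1% in replicate 2, against 78.9%, 73.3% and 77.3% in control F0. The F test called 0 of the 256, and 25 had an unadjusted p under 0.05, where 8.81% of all windows did. At Dlec1 its unadjusted p was 0.000523 and its adjusted p 0.557 by the F test, and no exact permutation p can go below 0.2 with 2 against 3 mice.

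The offspring comparisons each used control F1 as the reference, so they share its 5 libraries. Under the same rule, 0 of 323 members were called by the chi-square test in SSCT F1 against control F1 (0.415% of all windows were called), 0 in SSCT F2/P (0.392%), 0 in SSCT F2/M (0.363%) and 0 in both F2 lines together (0.143%). Among windows with 10 or more positions in the comparison, 0.00724%, 0.0%, 0.0% and 0.0% were called. Such windows resemble the members in number of positions but not in level, since 10211 of the 10751 dense windows were under 20%. The F test and limma called 0 members in each. At an unadjusted p under 0.05 the F test held 17, 15, 17 and 11 members in these 4 comparisons, with 8.63%, 8.71%, 8.65% and 8.12% of all windows, and limma 13, 8, 13 and 8, with 4.97%, 5.06%, 4.98% and 5.03%.

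Differences of the members were small. The median difference from control F1 was 0.0839 points in SSCT F1, 0.0564 in SSCT F2/P, 0.166 in SSCT F2/M and 0.0432 in both F2 lines, and each was negative under the picture's names. In the same order, the median size of a difference was 0.985, 0.820, 0.949 and 0.704 points, against 1.66, 1.61, 1.60 and 1.44 over all windows and 1.19, 1.16, 1.15 and 0.982 over windows with 3 or more positions. At any size of difference the chi-square test had q under 0.01 for 79, 86, 108 and 90 members, where 29.5%, 30.3%, 30.0% and 29.4% of all windows had it. With a limit of 10 points in place of 25, the members called were 1, 3, 1 and 2, where 5.16%, 5.16%, 5.02% and 3.62% of all windows were.

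In SSCT F1 the largest difference was at chr3:9387001-9388000, whose levels by mouse are given above. SSCT F1 had 87.3% ± 6.29 against 76.9% ± 13.1 in control F1 (SD, n = 5 each, exact permutation p = 0.143), and the groups overlapped. Control F0 also lay above control F1 there, at 91.2%. The next was the Zc3h13 window, at 88.0%, 68.7%, 69.1%, 74.2% and 90.6% in SSCT F1 against 80.5%, 91.0%, 91.5%, 96.4% and 68.4% in control F1 (exact permutation p = 0.286). In the window of Camk2g, a calcium and calmodulin-dependent kinase, SSCT F1 had 92.3% ± 6.09 and control F1 97.9% ± 1.82 (exact permutation p = 0.0952). The smallest p that 5 against 5 mice allow is 0.00794.

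In SSCT F2/M the window chr3:45579001-45580000 was at 83.8%, 82.9%, 87.0%, 89.5% and 84.7%, against 85.3%, 74.0%, 81.3%, 76.0% and 74.8% in control F1. The means were 85.6% ± 2.65 and 78.3% ± 4.88 (exact permutation p = 0.0317), and the highest control mouse lay among the SSCT F2/M mice. Under the other names of the groups this difference turned to −7.51 or −4.14 points. The other large differences were at chr3:9387001-9388000, with 86.5% against 76.9% (exact permutation p = 0.238), and at chr1:90335001-90336000, with 82.9% ± 8.21 against 92.2% ± 4.56 (exact permutation p = 0.0714).

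The window chr1:90335001-90336000, in no gene and 2.23 kb from a gene start, also differed most in SSCT F2/P. Its levels were 96.3%, 90.3%, 85.5%, 92.5% and 96.3% in control F1 and 77.5%, 88.1%, 86.3%, 95.7% and 91.2% in SSCT F1. SSCT F2/P mice had 73.6%, 85.2%, 86.8%, 81.5% and 62.0%, and SSCT F2/M mice 86.5%, 93.6%, 75.3%, 74.0% and 85.3%. In SSCT F2/P the mean of 77.8% ± 10.2 was lower than that of control F1 (exact permutation p = 0.0159), and 1 SSCT F2/P mouse was above the lowest control. Adjusted over all windows the difference did not pass (limma adjusted p = 0.962). Both F2 lines together were at 80.4% ± 9.14 (exact permutation p = 0.00932), where 0.000666 is the smallest p allowed. The direction turned under other names of the groups, which are given with the limits at the end.

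In SSCT F2/P the window of Csrnp1, a nuclear protein induced by axin, was at 61.4%, 83.4%, 76.0%, 76.6% and 80.3%, against 93.7%, 91.1%, 85.1%, 75.1% and 85.8% in control F1 (exact permutation p = 0.0556). In Gm5724, a predicted gene, SSCT F2/P had 77.6%, 76.9%, 77.0%, 60% and 79.3% and control F1 85.4%, 82.8%, 88.2%, 79.2% and 79.3% (exact permutation p = 0.0238). Both windows overlapped between the groups.

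Groups did not overlap in 3 members for SSCT F1 (0.432% of all windows), 2 for SSCT F2/P (0.469%), 3 for SSCT F2/M (0.428%) and 0 for both F2 lines (0.0464%). In SSCT F1 these were Kcnab2, a potassium channel subunit, Gpatch8 and chr8:12216001-12217000, lower by 1.68, 2.50 and 2.27 points. At chr8:12216001-12217000 control F1 was at 99.7%, 100%, 100%, 100% and 99.3% and SSCT F1 at 99.3%, 97.7%, 96.4%, 98.1% and 95.4%. SSCT F2/M, at 97.4%, 98.7%, 96.2%, 98.6% and 98.8%, was lower there by 1.41 points and did not overlap the same control mice either. In SSCT F2/M the other members were chr12:5056001-5057000, higher by 2.68 points, and Ajap1, higher by 1.72. In SSCT F2/P they were Oma1, a mitochondrial protease, lower by 2.73 points, and Dusp5, a phosphatase of MAP kinases, lower by 1.75. Each of these differences was under 3 points, and none was called by the F test or by limma after adjustment.

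Control F0 was compared with control F1, which differ in age and generation. No member was called by the chi-square test, the F test or limma (0.855% of all windows were called by the chi-square test, and 0.00581% of those with 10 or more positions). With q under 0.01, 86 members differed at any size (29.8% of all windows) and 2 by over 10 points (7.01%), and at an unadjusted p under 0.05 the F test held 12 and limma 4 members, with 7.98% and 5.09% of all windows. The median size of a difference was 0.932 points, against 1.77 over all windows and 1.31 over windows with 3 or more positions. The largest difference was at chr3:9387001-9388000, with 98%, 81.2% and 94.5% in control F0 and a mean of 91.2% ± 8.88 against 76.9% ± 13.1 in control F1 (exact permutation p = 0.107), and the groups overlapped. At Csrnp1 control F0 was at 73.9% ± 9.96 and control F1 at 84.2% ± 4.86 over the 24 positions read in both (exact permutation p = 0.143). The Btc window was at 94.3%, 93.1% and 94.9% in control F0 and 75.2%, 87.3%, 93.9%, 82.2% and 84.4% in control F1 (exact permutation p = 0.0714). The groups did not overlap in 4 members (2.08% of all windows), with Klf3, a transcription repressor, higher by 5.20 points in control F0, Tln2, a talin, higher by 6.20, Itga9, an integrin subunit, lower by 3.25 and chr12:5051001-5052000 lower by 5.52. The smallest exact p that 3 against 5 mice allow is 0.0357.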

How the data were processed

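The authors trimmed reads with Trim Galore 0.4.1 and aligned and called them with Bismark 0.20.0 on GRCm38 (mm10), with FastQC and methylKit 1.7.0 also named in the submitters' processing notes. The deposited files give, per cytosine position and strand, a read count (coverage) and the fraction of methylated reads, per library and without pooling. Methylated reads were recovered as coverage times fraction (0 positions not whole, within 0.02 reads). Positions with at least 10 reads and under the 99.9th percentile of their library were kept, 1000-bp windows were formed, and the per-window tests named in the report were run with Python 3.11.15, numpy 2.4.6, scipy 1.17.1 and limma 3.58.1 in R 4.3.3, the last on log2 of methylated over unmethylated reads with 1 read added to each. Scripts were tested on simulated data. Fits were made on all windows, and q-values adjusted over all of them.

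The members, gene lists and named windows were chosen with earlier results of these data known. Named windows were the 6 with the most positions, the largest SD between mice, the highest level and the largest spread of positions, the 3 on each side of the threshold, and the 3 largest differences in each comparison; others are said to be chosen after their values were seen. The 325 pairs of libraries differed beyond sampling noise. Same-numbered mice of different groups did not deviate together (correlations of −0.0168 to 0.0216), and the main tests used no pairing by replicate number. Whether same-numbered mice shared a father or their handling was not tested. Genome sequence of the windows was not used here.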

Additional observations from a re-analysis of the deposited data

Results flagged for a closer look

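In 64 groups of 5 mice, over 15 windows and the mean of the members, a mouse stood apart from the others of its group in 4, by a gap above 0.71 of the group's range. Chance gives about 1 in 20 among groups not chosen by their values. The windows here were chosen for a large SD, a large difference or a low level in SSCT F0 replicate 1, so that rate may not hold for them. The mean level over the members was 92.9946% in SSCT F2/P replicate 3, where the next lowest mouse was at 93.6176%. The same mouse was at 60.4167% in chr3:9387001-9388000, where the next was at 87.2564%. In chr6:26151001-26152000, SSCT F1 replicate 2 was the highest at 93.1193%, and the next was at 82.3045%. In the Gm5724 window, chr6:141753001-141754000, SSCT F2/P replicate 4 was at 60%, and the next was at 76.8535%.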

How the results depend on the processing

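The count of members called was 0 under every alternative run for the comparisons of offspring or control F0 with control F1, except that a limit of 10 points gave 1 in SSCT F1, 1 in SSCT F2/M, 3 in SSCT F2/P, 2 in both F2 lines and 2 in control F0. With replicate number as a block, 4 members were called in SSCT F0 and 0 in the other 5 comparisons, so that the replicate block changed no call. In SSCT F0 the 4 calls became 0 with the F test, 0 with limma and 1 with 3 or more positions per window, while with 20 or more positions per member the count was 0 because 0 members could be tested. Leaving out 1 mouse gave 4 to 12 (10 without replicate 2 and 12 without replicate 3). The median difference of SSCT F0, −34.9 points, was −6.31 with 3 or more positions, −5.35 at 5 reads, −56.8 at 20 reads, −53.0 with no upper limit on coverage, −17.8 with windows shifted by 500 bp and −54.5 to 0 when 1 mouse was left out. With 20 or more positions the median was −0.433 in SSCT F1 and −0.388 in SSCT F2/P, and under the picture's names it was −0.0483 in SSCT F1, −0.0574 in SSCT F2/P, −0.166 in SSCT F2/M, −0.142 in both F2 lines and −0.111 in control F0. The members numbered 1039 at 5 reads, 50 at 20 reads, 175 with strands merged and 8 with 20 or more positions. Leaving out 1 mouse, the SSCT F0 difference ran from −91.4 to 0.254 points at Lrrfip1 and from −82.7 to 4.20 at chr11:31774001-31775000, both positive without SSCT F0 replicate 3. Under the picture's names, and then with F2/M and F2/P exchanged in it, chr3:45579001-45580000 in SSCT F2/M turned to −7.51 and −4.14 points, chr1:90335001-90336000 in SSCT F2/P to 2.79 and 8.76, and in both F2 lines to 5.83 under each. Of 30 named differences recomputed under other names, 17 changed sign. The cause of these changes was not tested. In SSCT F0, where replicates 2 and 3 kept fewer positions, 8 members could be tested.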
